A study of Homo sapiens with 2 samples.

Results

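The cytokine IL11 and the wider IL6 family of ligands, receptors and signalling proteins were followed in KYSE-170, a cell line from a human oesophageal squamous carcinoma, after transfection with miR-210. The genes are IL11, IL6 and LIF (ligands), IL11RA, IL6R, IL6ST, LIFR and OSMR (receptor chains), STAT3 (the transcription factor) and SOCS3 (the feedback inhibitor). A probe was taken where its gene symbol in the platform annotation, updated to the current name, was 1 of these 10. In this way 9 of the 10 genes were found, each with 1 probe, among 24267 probes in all; IL11RA had no probe under its name and is not analysed here. The set was assembled because IL11 is among the genes with the largest increase on the miR-210 array, so the IL11 value is given as a description and supports nothing by itself.

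There were 2 arrays of the same cell line: 1 of cells given an oligoribonucleotide called ncRNA, which serves as the comparison, and 1 of cells given the miR-210 oligoribonucleotide. Both groups received the transfection reagent Hiperfect, and no group without transfection is part of the comparison. The sources used here give neither the dose nor the time after transfection. With 1 array per group, no replicate error exists and no p-value was computed. The only spread these arrays provide is that between probes of the same gene. Their log2 ratio had a SD of 0.44 over 251 genes with at least 2 probes that passed the level filter given below. This spread holds no difference between cultures, RNA preparations or arrays. In RNA from a whole culture, fewer cells of a type and less RNA per cell cannot be told apart.

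Cytokines of the IL6 family act through receptor complexes that share the signalling chain gp130, encoded by IL6ST. IL11 and IL6 first bind their own alpha chains, IL11RA and IL6R, and then pair gp130 with itself, while LIF uses gp130 together with LIFR, and oncostatin M uses gp130 with OSMR or LIFR. The paired chains activate JAK kinases, which phosphorylate STAT3, and STAT3 in turn induces its own inhibitor SOCS3. In squamous epithelium and in carcinomas this pathway is known for its part in wound repair, inflammation and tumour growth, and IL11 is also a well-known product of stromal fibroblasts.

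The oligoribonucleotide that separates the groups carries the name of miR-210, which hypoxia is known to induce. The labels give no sequence, so the RefSeq entry of the mature microRNA is shown, from GRCh38.p14 at chr11:568112-568133 on the minus strand; capitals mark the seed, bases 2 to 8 from the 5′ end, by which a microRNA recognises most of its targets.
hsa-miR-210-3p: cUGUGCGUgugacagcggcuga
FGFRL1, the reported miR-210 target for which the study is known, stood lowest of all genes kept by log2 ratio, reading 277 with ncRNA and 21 with miR-210.

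Promoters of the genes with the largest differences are shown next because they were higher together on the miR-210 array, with that of IL6 for comparison because IL6 was not. Each run holds 250 bases before and 50 bases after the start site annotated by RefSeq (GRCh38.p14), read 5′ to 3′ on the strand of the gene. The windows are chr19:55370414-55370713, minus strand for IL11; chr5:38845762-38846061, plus strand for OSMR; chr5:38595356-38595655, minus strand for the first of 3 LIFR windows; chr17:42388393-42388692, minus strand for STAT3; and chr7:22726950-22727249, plus strand for IL6. Capitals mark letters that match 1 of 3 motifs on either strand: TGANTCA, bound by AP-1 factors; TTCNNNGAA, bound by STAT dimers; and GGNNTTTCC, bound by NF-kB.
IL11: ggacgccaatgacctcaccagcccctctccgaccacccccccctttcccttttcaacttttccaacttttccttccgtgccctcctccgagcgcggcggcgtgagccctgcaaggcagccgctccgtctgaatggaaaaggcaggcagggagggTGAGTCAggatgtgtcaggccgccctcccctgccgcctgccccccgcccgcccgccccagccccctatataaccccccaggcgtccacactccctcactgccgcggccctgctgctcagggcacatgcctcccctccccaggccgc
OSMR: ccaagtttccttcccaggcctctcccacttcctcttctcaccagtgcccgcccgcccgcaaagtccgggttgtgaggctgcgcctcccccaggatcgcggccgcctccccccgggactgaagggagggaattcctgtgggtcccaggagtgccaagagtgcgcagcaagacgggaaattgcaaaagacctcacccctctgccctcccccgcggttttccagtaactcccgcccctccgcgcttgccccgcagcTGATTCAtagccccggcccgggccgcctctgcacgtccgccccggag
LIFR: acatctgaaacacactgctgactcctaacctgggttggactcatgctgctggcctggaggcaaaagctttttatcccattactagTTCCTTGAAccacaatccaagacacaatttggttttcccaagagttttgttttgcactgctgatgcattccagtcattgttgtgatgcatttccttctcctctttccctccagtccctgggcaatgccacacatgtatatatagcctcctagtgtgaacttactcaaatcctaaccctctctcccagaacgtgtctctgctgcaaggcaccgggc
STAT3: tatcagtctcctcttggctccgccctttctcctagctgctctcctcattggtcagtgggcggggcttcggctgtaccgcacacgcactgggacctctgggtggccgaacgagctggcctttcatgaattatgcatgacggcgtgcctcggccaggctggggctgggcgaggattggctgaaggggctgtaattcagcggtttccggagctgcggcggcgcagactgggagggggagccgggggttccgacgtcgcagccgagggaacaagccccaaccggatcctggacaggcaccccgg
IL6: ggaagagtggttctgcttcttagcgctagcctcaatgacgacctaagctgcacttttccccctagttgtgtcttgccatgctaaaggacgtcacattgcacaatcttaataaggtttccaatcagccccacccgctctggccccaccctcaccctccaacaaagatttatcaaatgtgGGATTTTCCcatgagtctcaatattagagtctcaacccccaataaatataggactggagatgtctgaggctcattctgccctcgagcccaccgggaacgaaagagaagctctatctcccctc
The IL11 window held 1 AP-1 match, TGAGTCA, beginning at position -96 from the start site. The OSMR window held 1 AP-1 match, TGATTCA, which begins at position 4 and so lies inside the transcribed part. The first LIFR window had a STAT match, TTCCTTGAA at position -165, the second LIFR window had another, TTCATCGAA at position -182, and the third had none of the 3 motifs. The IL6 window had an NF-kB match, GGATTTTCC at position -72, and the IL6R window an AP-1 match at position 38. No match to any of the 3 motifs was found in the windows of STAT3, SOCS3, IL6ST or IL11RA, and LIF has no entry in the promoter table. Of 35116 promoter windows of this length, 7.71% held the AP-1 motif, 7.66% the STAT motif and 6.26% the NF-kB motif. No motif was shared by all 4 genes that were higher. A match of letters is a description of the window, and binding was not measured.

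Of the 9 measured genes, 4, namely IL11, LIFR, STAT3 and OSMR, were at least 2-fold higher on the miR-210 array, and none was 2-fold lower. In the other 5, IL6, IL6R, SOCS3, LIF and IL6ST, the log2 ratio lay within 0.44 of 0. LIF and IL6ST were dimmer than the probes from which the spread of 0.44 was taken. Among all 12405 named genes with values above 0, and with no filter on level, 7.08% reached 2-fold higher and 6.72% reached 2-fold lower. The genes of this family were chosen with these values in view, so the count is set beside the background as a description only. Intensities are printed as deposited, while log2 ratios are miR-210 minus ncRNA of the quantile-normalized values, and each fold is computed from its log2 ratio.

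IL11 is a secreted cytokine of the gp130 group. It read 38 with ncRNA and 148 with miR-210, which is 4.2-fold higher (log2 ratio 2.07) and ranks 6 from the highest among the 6681 genes kept. The ncRNA value stood at the middle of its array, at percentile 49.4 of all probes, and the miR-210 value at percentile 74.8. With an offset of 10 added to both values before the logarithm, the difference was 3.51-fold, and with an offset of 50 it was 2.35-fold.

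IL6, the cytokine that gives the family its name, did not follow IL11. Its intensity was 267 with ncRNA and 250 with miR-210, a log2 ratio of 0.02 that turned to -0.09 without between-array normalization and to -0.02 with median scaling. LIF, a ligand of the LIFR and gp130 pair, read 23 and 19, both low on their arrays, at percentiles 35.2 and 29.6. Its log2 ratio was -0.22, smaller than the spread between probes, which was taken from brighter probes than this one. Of the 3 ligands, IL11 alone was 2-fold apart between the arrays. These ratios compare each probe with itself; the intensities of different probes were not set against each other, because probes differ in how brightly they bind.

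**Figure D1:**
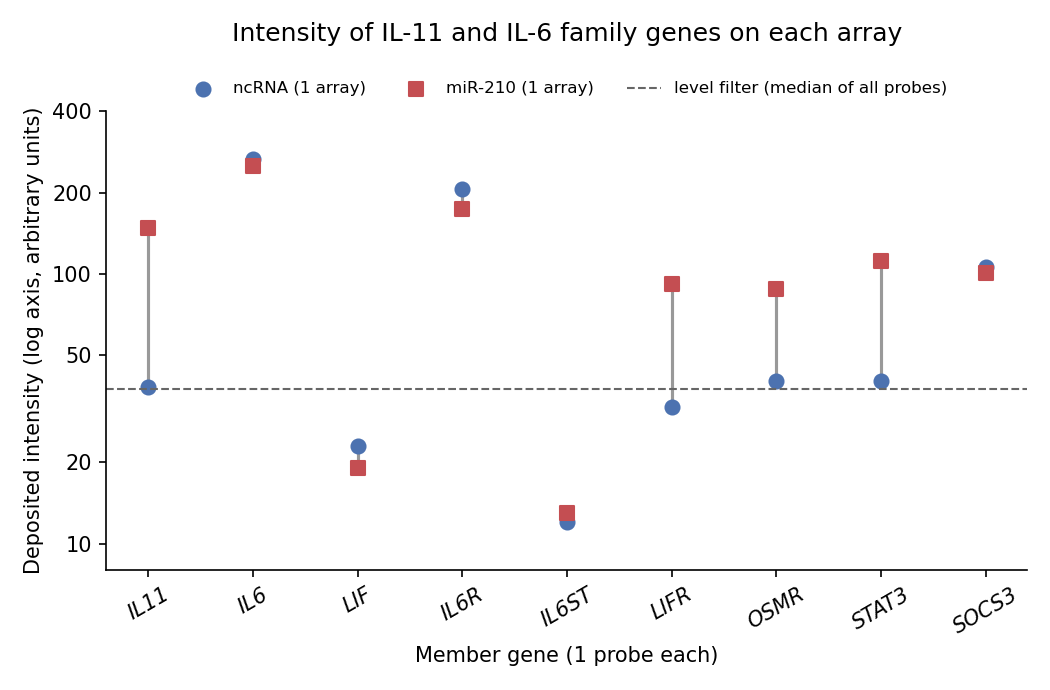
Deposited intensity (log axis, arbitrary units) of the 9 genes with a probe, on the ncRNA array (circles) and on the miR-210 array (squares), with 1 array per group and no error bars; the dashed line is the level filter at 37.5. IL11, LIFR, OSMR and STAT3 read between 32 and 40 with ncRNA and between 88 and 148 with miR-210, while the paired symbols of the other 5 nearly touch.

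Among the receptor chains, both chains that pair with gp130, LIFR and OSMR, were higher on the miR-210 array. LIFR, which carries the LIF signal, read 32 and 92, a log2 ratio of 1.63 or 3.09-fold higher. OSMR, a receptor chain for oncostatin M, read 40 and 88, a log2 ratio of 1.25 or 2.37-fold higher. LIFR ranked 31 and OSMR 103 from the highest of the genes kept. With an offset of 10 the folds were 2.58 for LIFR and 2.09 for OSMR, and with an offset of 50 they were 1.8 and 1.6.

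IL6R, the alpha chain that captures IL6, was near equal on both arrays, with intensities of 206 and 174 and a log2 ratio of -0.13. The shared chain IL6ST read 12 and 13, at percentiles 13.4 and 15.6 of all probes, and its log2 ratio was 0.10. At that level its probe lay among the dimmest of both arrays, so its near equal readings do not show whether the shared chain differed. Whether the IL6ST probe would brighten where gp130 is abundant was not tested, and probe sequences were not used here.

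STAT3, the transcription factor that these receptors activate, read 40 with ncRNA and 112 with miR-210. The log2 ratio was 1.59, or 3-fold higher, at rank 36 from the highest. An offset of 10 gave 2.59-fold and an offset of 50 gave 1.87-fold. SOCS3, which STAT3 induces and which blocks gp130 signalling, read 106 and 101, a log2 ratio of 0.04 that became -0.07 without between-array normalization. The STAT3 transcript was thus higher on the miR-210 array while the SOCS3 transcript was near equal; transcript levels do not report the phosphorylation of STAT3, which was not measured.

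The 4 genes that were higher share a narrow range on the ncRNA array, from 32 to 40, close to the array median of 39. Of all 791 named genes in that ncRNA range, 3.16% reached 2-fold higher and 7.59% reached 2-fold lower with miR-210. By log2 ratio within these 791 genes IL11 ranked 1, LIFR 5, STAT3 6 and OSMR 16 from the highest. The range was drawn around genes already known to be higher, so these ranks describe their place and support nothing.

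The counts that follow keep a probe only where its level, the mean of its 2 log2 values, is no lower than the median over probes (an intensity of 37.5). The filter kept 7 of the 9 genes and removed LIF and IL6ST. The normalized ncRNA values of IL11 and LIFR, 36.7 and 31.0, were under the filter, so both genes passed only through their miR-210 values and had to be higher there to be kept. Of the 7 kept, 4 reached 2-fold higher, beside 3.02% of all 6681 genes kept, and 0 reached 2-fold lower, beside 3.17%. Without between-array normalization the same 4 genes were 2-fold higher, beside 2.09% of all genes kept (140 genes in place of 202), and 0 were 2-fold lower, beside 4.76% (318 in place of 212).

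**Figure D2:**
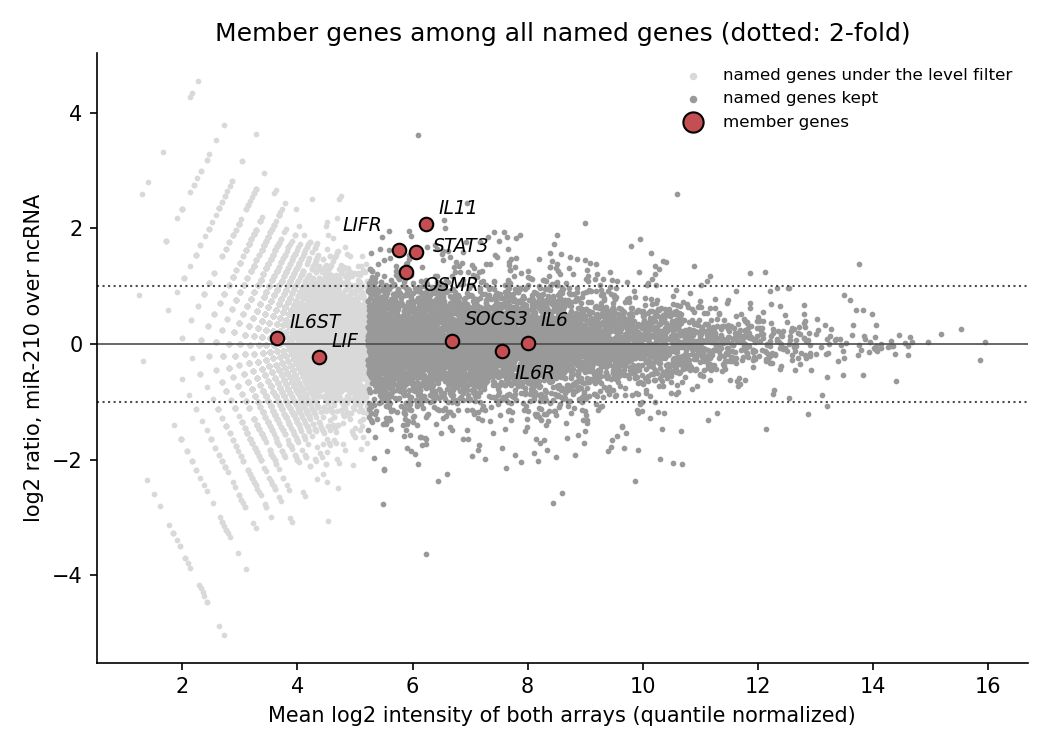
The log2 ratio (miR-210 over ncRNA) against the mean log2 intensity of both arrays, after quantile normalization, for 12405 named genes (grey; pale where under the level filter) and the 9 family members (red). IL11, LIFR, STAT3 and OSMR lie above the dotted 2-fold line at the dim end of the genes kept, where the scatter is wider than among bright genes, and the other 5 lie near 0.

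The genes nearest to IL11 in the order of log2 ratios, over 2 arrays, were ANXA10 (55 and 275), FAM135A (46 and 188) and VKORC1L1 (257 and 998) above it and ATE1 (49 and 183), GBP6 (25 and 91) and TGFBR3 (32 and 116) under it. Their log2 ratios ran from 1.95 to 2.44, all within 0.44 of that of IL11, so this order is not resolved by the spread between probes. TGFBR3 encodes betaglycan, a co-receptor for TGF-beta. GBP6 and TGFBR3 passed the level filter only through their miR-210 values, as IL11 did.

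The rest of the pathway was read from lists chosen by role. Of the 87 genes of 7 lists, with the members left out and each gene counted once, 76 had a probe and 49 were kept. Of the 49, 3 reached 2-fold higher, beside 3.02% of all genes kept, and 0 reached 2-fold lower, beside 3.17%. With both directions together this was 6.12%, beside 6.2% of all genes kept. The median log2 ratio of the 49 genes was 0.11, beside 0.01 for all genes kept. Beyond the 9 members the share with both directions together was thus near that of all genes kept, but all of it lay in the higher direction.

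Among the other ligands, CNTF, the ciliary neurotrophic factor, was the only one kept of 4 with a probe, at 171 and 130 with a log2 ratio of -0.29. Its dimmer probe read 12 and 6. All 3 genes kept from the list of other receptor chains and sheddases had positive log2 ratios under every scaling run, where 3393 of all 6681 genes kept were positive. ADAM17 passed the filter only through its miR-210 value, so its sign was fixed by the filter. ADAM17, the protease that sheds the IL6 receptor from the cell surface, stood at 0.68 (32 and 48). IL27RA, a receptor chain that pairs with gp130 for interleukin-27, stood at 0.52 (39 and 52), and ADAM10, a related protease, at 0.35 (152 and 179). None reached 2-fold.

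In the list of kinases, other STATs and the SHP2 branch, 3 of 8 genes kept had positive and 5 negative log2 ratios, with a median of -0.16. STAT5B, a STAT protein used mainly by growth hormone and the interleukin-2 group of cytokines, was the only one past 2-fold, at 55 and 151, a log2 ratio of 1.56 or 2.96-fold higher. Its ratio stayed at least 2-fold higher with an offset of 50, at 2.01-fold. The kinases and STATs that follow were named for their roles after their values were seen. JAK1, the main kinase bound to gp130, read 478 and 454, a log2 ratio of 0.04 that turned to -0.07 without between-array normalization. TYK2, another kinase bound to gp130, stood at -0.38 (222 and 158). STAT5A, the close relative of STAT5B, stood at -0.22 (106 and 84), and STAT2, which serves interferon signalling, at -0.57 (485 and 300). PTPN11, which encodes the phosphatase SHP2 that links gp130 to RAS, read 3893 and 2220 and stood at -0.63. The higher value of STAT3 thus had a counterpart in STAT5B but not in STAT2 or STAT5A.

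The inhibitors were split. Of 11 kept besides SOCS3, 5 had positive and 6 negative log2 ratios, with a median of -0.06, and neither direction reached 2-fold. SOCS4, a SOCS protein linked to EGF receptor turnover, came closest, at 144 and 67 with a log2 ratio of -0.998; it passed 2-fold lower under median scaling and without between-array normalization, where its ratio was -1.03 and -1.10. SOCS2, an inhibitor of growth hormone signalling, stood at 0.47 (116 and 149) and SOCS5 at 0.37 (288 and 341). SOCS6 (44 and 35) passed the filter only through its ncRNA value, so its negative sign was fixed by the filter.

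Genes known to respond to STAT3 went both ways. Of 28 on the list 27 had a probe and 18 were kept, 12 with positive and 6 with negative log2 ratios and a median of 0.11. Beside this, 3393 of 6681 genes kept were positive, with a median of 0.01. Without between-array normalization 7 were positive and 10 negative, and the median was -0.04. All genes kept moved the same way in that setting, with 2651 positive, 3966 negative and a median of -0.12. FOS, an immediate early gene and AP-1 subunit, was the only one past 2-fold, at 37 and 71, a log2 ratio of 1.04 or 2.06-fold higher, and it lost that place with an offset of 10, at 1.83-fold, with an offset of 50, at 1.44-fold, and without between-array normalization, at a log2 ratio of 0.94. The genes PIM1, MCL1 and CEBPB are named after their values were seen: PIM1, which encodes a kinase, stood at 0.72 (61 and 93), MCL1, a survival gene of the BCL2 family, at -0.75 (930 and 508), and CEBPB, a transcription factor of the acute phase, at -0.37 (1854 and 1268).

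AP-1 factors are known to bind the IL11 promoter, where the match shown above lies. Of 8 subunits with a probe 5 were kept, and all 5 had positive log2 ratios, with a median of 0.49, where 3393 of all 6681 genes kept were positive. JUNB (146 and 137), at 0.03, turned negative under median scaling and without between-array normalization. FOS passed the filter only through its miR-210 value, so its sign was fixed by the filter. Of the 5, 2 reached 2-fold higher, beside the 3.02% of all genes kept given above. That count was 1 without between-array normalization and 1 with an offset of 10. It was 0 with an offset of 50, where ATF3 was 1.95-fold higher. Among all genes kept, 202 of 6681 were 2-fold higher. This became 140 of 6686 without between-array normalization, 158 of 6705 with an offset of 10 and 87 of 6709 with an offset of 50. ATF3, a stress-induced partner of JUN proteins, read 69 and 170, a log2 ratio of 1.41 or 2.66-fold higher, and FOS, given above, was the other one past 2-fold. JUNB and 2 further subunits are named after their values were seen: FOSL1 stood at 0.49 (71 and 92) and JUN at 0.35 (124 and 147). The subunits under the filter, named likewise, were FOSB at 0.21 (15 and 17), JUND at 0.29 (24 and 28) and FOSL2 at -0.27 (25 and 20).

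TGF-beta is a known inducer of IL11. Of 7 genes of its ligands, receptors and SMADs with a probe 5 were kept, and none of these was 2-fold apart; the co-receptor gene TGFBR3, given above beside IL11, is not on the list. The receptor gene TGFBR1 stood at 0.81 (49 and 80), the signal transducer SMAD2 at 0.58 (457 and 627) and the ligand TGFB1 at -0.19 (84 and 68). The median of the 5 was 0.11, beside 0.01 for all genes kept, and 0 without between-array normalization, beside -0.12.

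**Figure D3:**
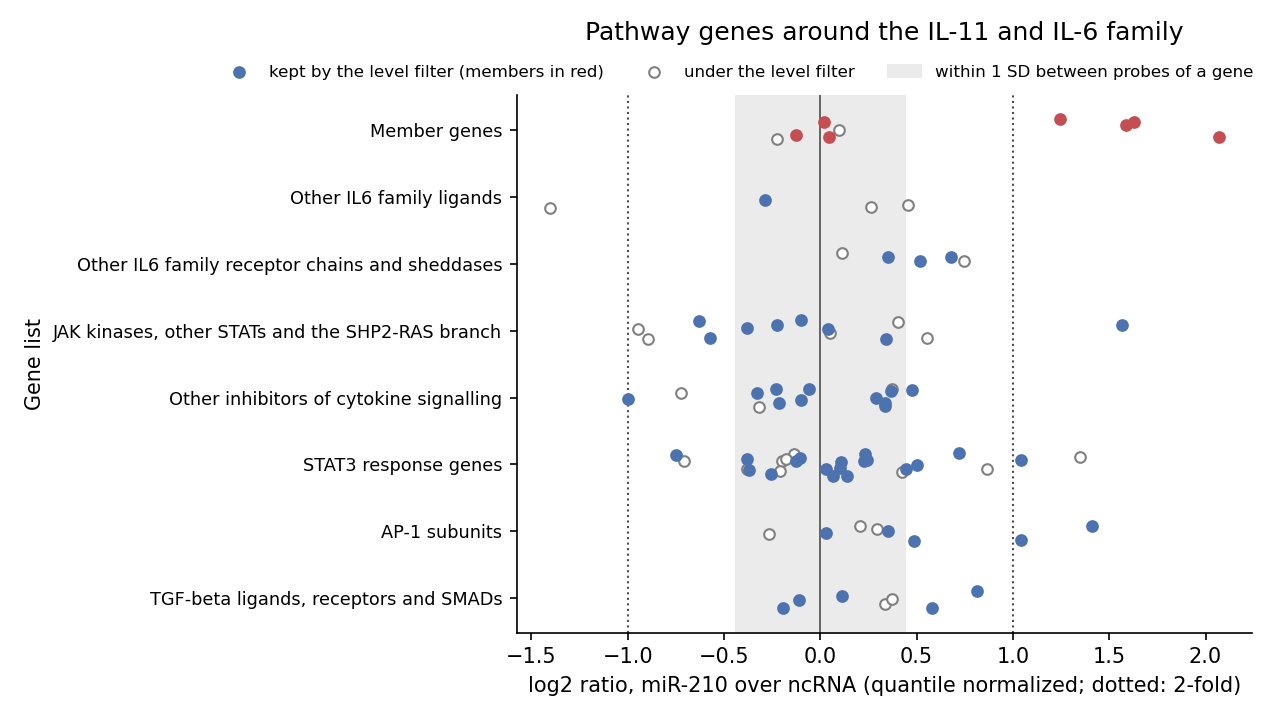
The log2 ratio (miR-210 over ncRNA) for the 9 family members and the genes of 7 related lists, filled where kept by the level filter and open where under it; the grey band is 1 SD between probes of a gene (0.44), the dotted lines mark 2-fold and vertical scatter within a list has no meaning. Among filled points only IL11, LIFR, STAT3, OSMR, STAT5B, FOS and ATF3 lie beyond 2-fold; FOS appears in both the STAT3 response and the AP-1 list.

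The cells were checked against markers. Of 10 squamous epithelial markers with a probe 8 were kept, 6 with positive and 2 with negative log2 ratios, where 3393 of all 6681 genes kept were positive. PKP1 (30 and 49) passed the filter only through its miR-210 value, so its sign was fixed by the filter. KRT17 (1541 and 2736) was the only one of the 8 kept past 2-fold, at a log2 ratio of 1.01. Its ratio was 0.90 under median scaling and 0.83 without between-array normalization. Markers named after their values were seen are the keratins KRT5 (290 and 496) and KRT14 (376 and 404), SFN (12693 and 7094) and TP63 (57 and 22). TP63 was under the filter, at a log2 ratio of -1.29 or 2.45-fold lower. Of 8 fibroblast markers, the cell type best known for IL11, 2 were kept, DCN (183 and 181) and PDGFRB (87 and 78), and the summed intensity of the list was 360 with ncRNA and 332 with miR-210. Most of that sum came from DCN and PDGFRB. The other 6 read at most 21 with ncRNA and at most 16 with miR-210, among them COL1A1 (21 and 16), COL1A2 (10 and 15) and LUM (8 and 12). The 5 endothelial markers summed to 233 and 186, most of it from VWF (126 and 103) and KDR (66 and 36), which were kept. The 5 leukocyte markers with a probe summed to 192 and 209. Most of that came from CD79A (133 and 126), which was kept, while PTPRC read 9 and 10. No marker probe was at 0. The part of other cell types in the IL11 values was not tested.

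**Figure D4:**
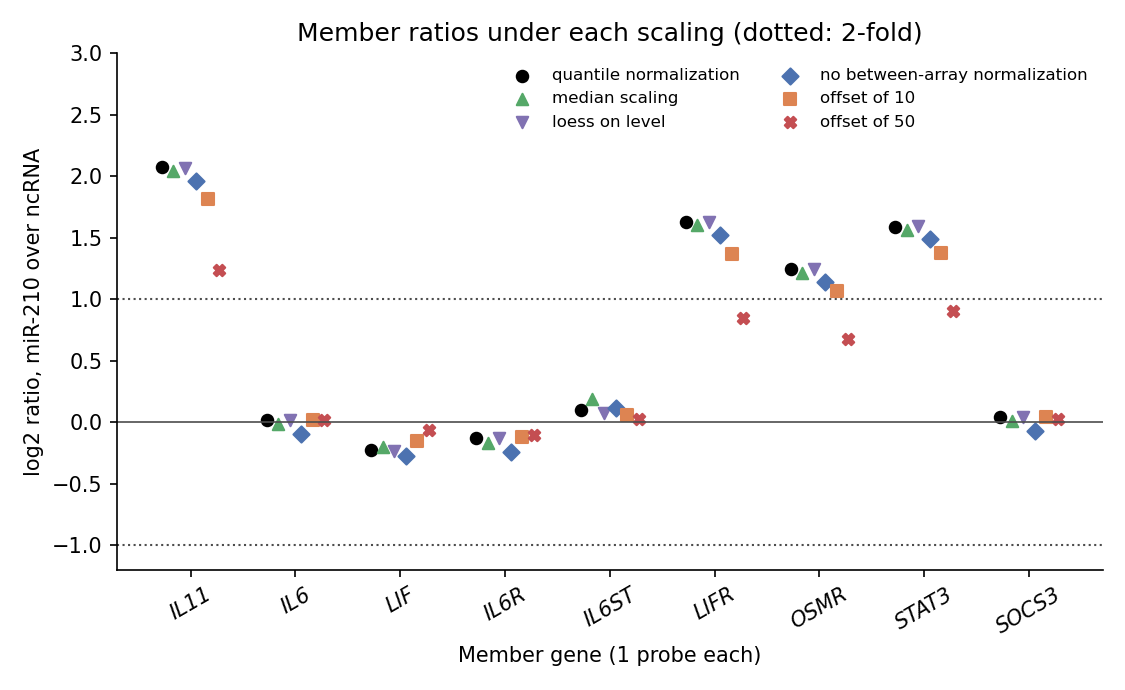
The log2 ratio (miR-210 over ncRNA) of the 9 genes under 6 ways of scaling the same 2 arrays, with dotted lines at 2-fold. The symbols of IL11, LIFR, STAT3 and OSMR stay above 0 under all 6 and above 2-fold under all but the offset of 50, where IL11 alone remains above it; the other 5 genes stay between -0.28 and 0.19.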

How the data were processed

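Total RNA of KYSE-170 cells was measured on 1-colour Cy5 oligonucleotide arrays (Toray), 1 per transfection, per the labels' protocols. The values deposited are linear intensity readings from -8 to 65496. Values under 0 mean that a background was subtracted before deposit; what else the authors did (scanner, background method, normalization) is not given in the sources used here. Groups came from the sample titles.

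Log2 was taken for the 24177 of 24267 probes above 0 on both arrays, followed by quantile normalization with Python 3.11.15 and numpy 2.4.6. The normalization was tested on simulated data. True changes were placed there only on probes brighter than IL11, LIFR, STAT3 and OSMR, so recovery of a change at their level was not tested. Of 13395 probes with a gene symbol, none had several; 2285 of 12474 symbols were updated through RefSeq synonyms, none of them a member's. A gene took its brightest probe. Alternatives were no between-array normalization, median scaling, loess, offsets of 10 and 50 and other level filters.

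The members and lists were chosen with earlier results of these data known. Named genes were all members, kept list genes past 2-fold (in a list with none, the 3 farthest from 0) and the 3 on each side of IL11; genes named besides, other marker genes included, were named after their values were seen. Array number limits the precision.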

Additional observations from a re-analysis of the deposited data

How the results depend on the processing

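The 4 genes at least 2-fold higher, IL11, LIFR, STAT3 and OSMR, kept that place with no between-array normalization, median scaling, loess on level and an offset of 10. Taking away the level filter or averaging over kept probes could not change it. A filter alters no ratio, and each of these genes had 1 probe. The offset of 50 was chosen after seeing the data, because these genes were dim on the ncRNA array. With it the log2 ratios were 1.24 for IL11, 0.85 for LIFR, 0.91 for STAT3 and 0.68 for OSMR, so that 1 gene was 2-fold higher in place of 4. That offset draws all ratios toward 0, and among all genes kept 87 of 6709 were 2-fold higher in place of 202 of 6681. The median log2 ratio of the 7 members kept, 1.25, was 0.68 with that offset, 0.64 without IL11, 0.10 with no level filter (9 members) and -0.055 with the filter at the 75th percentile, where only IL6 and IL6R were left and 0 members were 2-fold higher. In the wider lists, 1 gene was 2-fold higher with the offset of 50 in place of 3. The count of 2-fold lower genes there, 0, became 1 under median scaling and without between-array normalization, where SOCS4 passed, and 1 with no level filter, where OSM passed. Without between-array normalization the median log2 ratio of all genes kept was -0.12 in place of 0.01. The spread between probes ranged from 0.32 to 0.44. No paired analysis was possible because each group has 1 array, and for the same reason no replicate could be left out.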

Other observations

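Some genes of the family and of the related lists, most of them under the level filter, also differed in intensity. OSM, the ligand of OSMR and LIFR, read 27 with ncRNA and 10 with miR-210, a log2 ratio of -1.40. That miR-210 value lay at percentile 9.09 of its array, and the difference was 1.82-fold with an offset of 10 and 1.27-fold with an offset of 50. CNTFR, the alpha chain for ciliary neurotrophic factor, read 14 and 23, a log2 ratio of 0.75. STAT6, which serves interleukin-4 signalling, read 47 and 23, a log2 ratio of -0.95. FGG, a fibrinogen chain of the acute phase response, read 13 and 32, a log2 ratio of 1.35 and 1.88-fold with an offset of 10, while FGB read 24 and 20. The third fibrinogen chain, FGA, was kept by the filter and its 2 probes went opposite ways, at 76 and 54 and at 36 and 47. BCL2L1, a survival gene that responds to STAT3, read 19 and 33, a log2 ratio of 0.87. With no level filter, 878 of 12405 named genes reached 2-fold higher and 834 reached 2-fold lower. The 6681 genes kept by the filter held only 202 and 212 of these, so most such differences lay under the filter. The genes of this section were named after their values were seen.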
